A study of Sus scrofa with 10 samples.

Results

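Deoxycorticosterone acetate (DOCA) was compared with control in nuclear RNA of cardiomyocytes sorted from minipig hearts (Sus scrofa), gene by gene, in 7 of the 10 libraries that were sequenced. Genes were taken first where the estimated count was above 0 in all 7 libraries and both DOCA libraries deviated in the same direction from the control mean on the log2 scale. Of 35616 genes outside the mitochondrial genome and the ribosomal RNA scaffolds, 9026 were above 0 in all 7 libraries. In 6226 of these both DOCA libraries deviated in the same direction, upward in 3148 and downward in 3078, and in 2800 they deviated in opposite directions.

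The control group had 5 libraries (1 to 5) from wild-type minipigs that had received phosphate-buffered saline. The DOCA group had 2 (6 and 7) from wild-type minipigs treated with DOCA. The 3 remaining libraries (8 to 10), of wild-type minipigs given JK07 on top of DOCA, entered the filter, the scaling and the estimate of spread, and no comparison. The sources used here gave no heart chamber, dose, duration or age. No label states that each library is a different animal, and the p-values therefore cover only the spread between these libraries, which may be technical.

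DOCA is a steroid that binds the mineralocorticoid receptor, a hormone-activated transcription factor, and is given to pigs and rodents to retain salt and raise the load on the heart. A loaded cardiomyocyte is known to rebuild its sarcomeres, its Z discs and the adhesion sites that anchor them, and to change its supply of fuel. Nuclear RNA holds many transcripts that are not yet spliced or exported, so it reports a gene's nuclear transcripts rather than its translated message.

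The DOCA libraries stood apart from the controls in more than single genes. Outside the scaffolds and the mitochondrial genome, library 6 held 6.87 M and library 7 held 3.30 M estimated counts (M, counts in units of 1e6), against 8.67 to 13.9 M in the controls. Libraries 6 and 7 had 11522 and 10622 genes above 0, against 15097 to 17014. Mitochondrial transcripts took 2.58% and 0.488% of counts outside the scaffolds, against 3.69% to 5.57%. The first principal component (45.1% of variance) parted both from all other libraries, and the second (15.6%) placed them at opposite ends. The part of depth, zeros and the mitochondrial share in the results below was not tested.

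Markers of cardiomyocytes were abundant in every library. Levels are given in CPM, counts per 1e6 of a library's counts outside the mitochondrial genome and the scaffolds, scaled between libraries by TMM. The 15 cardiomyocyte genes summed to 31543 to 40888 CPM in the controls, 43830 in library 6 and 26234 in library 7, so library 6 lay above and library 7 below the control range. The 11 atrial markers summed to 4575 to 6330 CPM in controls, 5669 in library 6 and 5141 in library 7. MYBPHL, an atrial marker, was listed at 0 in all 7. The 9 ventricular markers summed to 2672 to 3378 CPM in controls, 2924 in library 6 and 2232 in library 7. Of these, 5 were listed at 0 in both DOCA libraries (MYL2, IRX4, IRX3, IRX5 and HAND1), IRX4 and HAND1 also in all controls, and MYL2, the ventricular myosin light chain, had at most 12.4 CPM in any control.

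Markers of other cell types were also present and differed between the DOCA libraries. The 16 fibroblast genes summed to 7451 to 22492 CPM in controls, 8294 in library 6 and 24646 in library 7, the last above every control. In the edgeR test described below, 0 of the 16 were higher and 3 lower, against 6.33% and 18.5% of all tested genes. Their median log2 change was -0.39, so the high sum in library 7 does not stand for each member. The 7 mesothelial genes, which mark the lining of the heart's outer surface, reached 1121 CPM in library 7, against 87.9 in library 6 and 57.9 to 285 in controls. In library 7 the keratin genes KRT19 and KRT8 stood at 538 and 233 CPM, against at most 74.4 and 92.3 in the controls, while KRT18 of the same list was listed at 0 in all 7 libraries. The sums of the 14 endothelial and 13 macrophage genes stayed within the control range in both libraries, at 1167 and 1767 CPM and at 495 and 597 CPM. Single members did not all do so: EMCN of the endothelial list and AIF1 and LYVE1 of the macrophage list were listed at 0 in both DOCA libraries, but not in all controls. The 11 lymphocyte and 8 Schwann cell or neuron genes were all listed at 0 in library 7. Their sums were low in controls too, at 10.8 to 23.5 and 15.6 to 76.4 CPM, and 5 of the lymphocyte genes were at 0 in all controls. Erythrocyte genes summed to 9.0 CPM in library 6 and 88.2 in library 7, against 13.9 to 144 in controls. Adipocyte genes summed to 149 and 104 CPM in libraries 6 and 7, both below the controls (184 to 270). LPL, whose fall is given below, is a member of this list and part of that sum, and no sum without it was taken. Smooth muscle and pericyte genes summed to 690 CPM in library 6, below the controls (784 to 1142), and 820 in library 7. In bulk RNA, fewer cells of a type cannot be told apart from less RNA per cell. The part of these markers in the results was not tested.

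**Figure D1:**
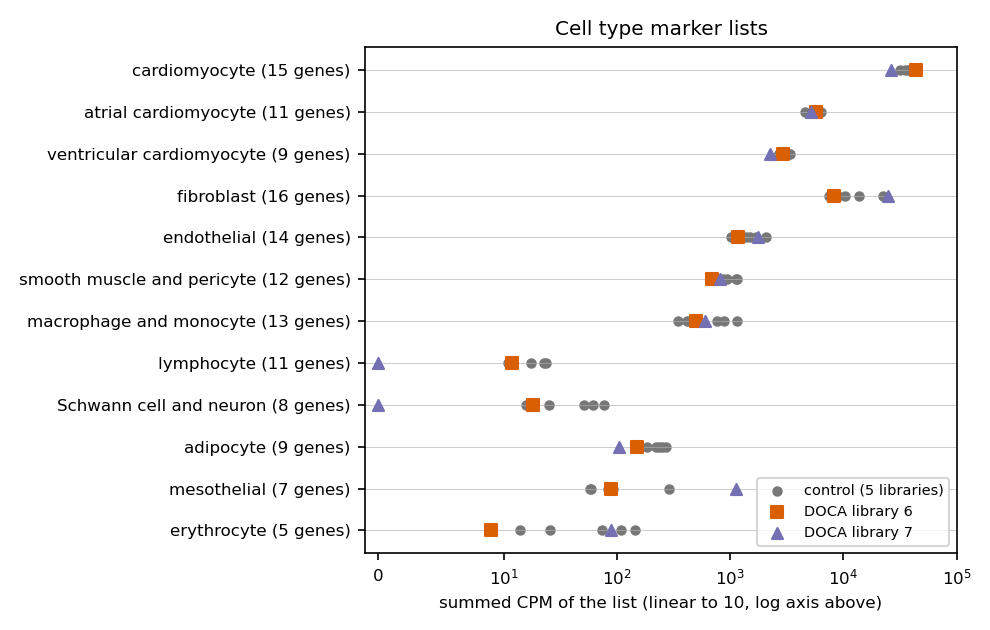
Summed CPM of 12 cell type marker lists in each of the 5 control libraries (circles), DOCA library 6 (square) and DOCA library 7 (triangle), on an axis that is linear to 10 and logarithmic above. Library 7 stands above all controls in the sums of mesothelial (1121 CPM) and fibroblast (24646 CPM) genes, and at 0 for lymphocyte and Schwann cell genes.

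Across all genes, more transcripts were lower than higher in DOCA, and much of that asymmetry lay in genes with zeros. With edgeR's quasi-likelihood test and adjusted p-values under 0.05, used below for "rose" and "fell", 1085 of 17149 tested genes rose (6.33%) and 3171 fell (18.5%), and the median log2 change was -0.58. Of the 3171 that fell, 1911 were listed at 0 in both DOCA libraries, where a size of change cannot be read. Among the 8981 tested genes above 0 in all 7 libraries, 1072 rose (11.9%) and 1251 fell (13.9%), and the median change was 0.06. The split depends on scaling: upper quartile factors moved that median to 0.25 and gave 1488 higher and 880 lower, so that 62.8% of calls were higher instead of 46.1%. All log2 changes below are relative to TMM scaling, and a list median just below 0 would lie above it with upper quartile factors.

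Many calls rested on 1 of the DOCA libraries. Among the tested genes above 0 in all 7, both DOCA libraries lay above every control for 19.7% and below every control for 22.3%. The call held both without library 6 and without library 7 for 301 genes that rose (3.35%) and 686 that fell (7.64%). These counts also required both DOCA libraries to lie beyond the control range on the side of the call. When each library received a weight for its own spread (voom in limma), 96 genes were higher and 86 lower, 0.56% and 0.501% of those tested. The number of higher calls fell from 1085 to 562 without control library 4, 690 without control library 5, 662 without library 6 and 691 without JK07 library 9. Of the 180 genes chosen by the rule for named genes, 113 kept their call whichever of the 10 libraries was left out, and 25 kept it with a weight per library. Where a call below ended without 1 library, that library is named with the adjusted p without it.

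**Figure D2:**
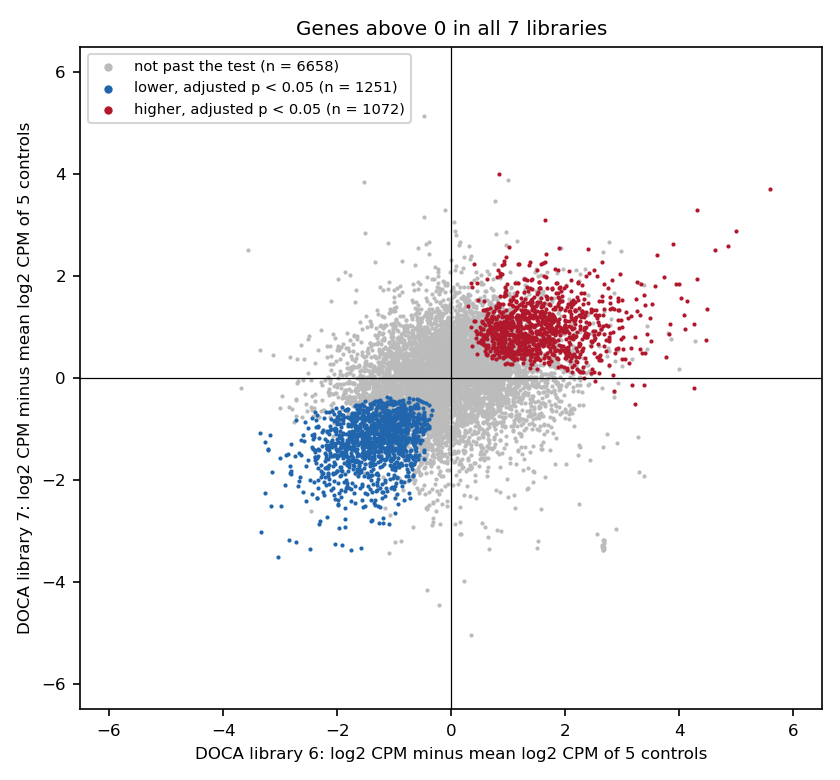
Each point is 1 of 8981 tested genes above 0 in all 7 libraries, placed by its deviation from the mean log2 CPM of the 5 controls in DOCA library 6 (x axis) and DOCA library 7 (y axis). The 1072 genes that rose (red) and the 1251 that fell (blue) lie almost entirely in the quadrants where both libraries deviate the same way, and the red points reach farther in library 6.

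The 12 largest rises that held without library 6 and without library 7 included genes of the sarcomere and of actin. The rule that chose them also required both DOCA libraries to lie above every control. MYO18B, an unconventional myosin needed to assemble sarcomeres (ENSSSCG00000009957, chromosome 14, 43468514 to 43687727, Sscrofa11.1), read 217, 196, 279, 234 and 218 CPM in control libraries 1 to 5, 2171 in library 6 and 839 in library 7. Both DOCA libraries lay far above a narrow control range, and the mean was 6.59-fold higher (log2 change 2.72, SE 0.31, adjusted p = 0.000205). The change was 1.87 without library 6 and 3.18 without library 7. ALPK3, a kinase of striated muscle whose loss causes cardiomyopathy, stood at 120, 136, 175, 141 and 150 CPM in controls, 2048 in library 6 and 300 in library 7. It rose by 3.02 (SE 0.52, adjusted p = 0.00247), and the change was 1.05 without library 6 and 3.76 without library 7. FLNC, filamin C, which cross-links actin at the Z disc, read 714 to 2117 CPM in controls against 18250 and 4320, a log2 change of 3.15 (SE 0.55, adjusted p = 0.00278; 1.76 without library 6). MICAL1, an oxidoreductase that takes actin filaments apart, went from 147 ± 25.3 CPM (SD, n = 5) to 1532 in library 6 and 393 in library 7.

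TEAD4, a DNA-binding partner of the Hippo pathway coactivators that control organ growth, was read at 16.4, 11.5, 24.4, 33.2 and 17.0 CPM in controls, 314 in library 6 and 56.7 in library 7. Neither DOCA library overlapped the controls, as the rule for the 12 rises required, and library 6 stood several times above library 7 (log2 change 3.18, SE 0.55, adjusted p = 0.00258; 1.47 without library 6). SPECC1, a cytoskeletal coiled-coil protein, had 5.29 to 19.4 CPM in controls, 172 in library 6 and 72.1 in library 7. MAST2, a microtubule-associated kinase, had 46.9 to 94.7 CPM in controls, 833 in library 6 and 198 in library 7. EEIG1, first known as an oestrogen-induced gene, went from 23.5 to 42.6 CPM in controls to 657 and 127. PKDCC, a secreted tyrosine kinase, read 7.61 to 26.3 CPM in controls, 147 in library 6 and 52.8 in library 7. In each of these 5 genes library 6 carried the larger excess.

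TNFRSF12A, the receptor of the cytokine TWEAK, and HCFC1R1, a regulator of a transcriptional cofactor, are neighbours on chromosome 3 with 0.249 kb between them, so reads of one may have been assigned to the other. TNFRSF12A (chromosome 3, 39166298 to 39168302) read 24.3, 7.13, 5.87, 8.59 and 17.7 CPM in controls, 216 in library 6 and 107 in library 7. HCFC1R1 (chromosome 3, 39164375 to 39166049) read 8.94, 3.36, 4.4, 4.51 and 7.04 CPM, against 64.8 and 28.3. Control libraries 1 and 5 were the highest for both genes. Their log2 changes were 3.67 (SE 0.64, adjusted p = 0.00283) and 3.04 (SE 0.44, adjusted p = 0.000878). SLC5A6, the carrier of biotin and pantothenate, completed the 12 largest rises with 8.29 to 10.6 CPM in controls, 98.5 in library 6 and 16.6 in library 7, a change of 2.66 that fell to 0.86 without library 6 (adjusted p = 0.0473).

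The 12 largest falls included genes of glycogen and lipid use, and here libraries 6 and 7 lay within 3-fold of each other. PPP1R3C, which brings protein phosphatase 1 to glycogen and so favours its synthesis, read 371, 128, 214, 148 and 185 CPM in controls, 20.3 in library 6 and 40.8 in library 7 (log2 change -2.78, SE 0.55, adjusted p = 0.00583). LPL, lipoprotein lipase (chromosome 14, 4104772 to 4135814), which frees fatty acids from circulating triglyceride, read 126, 165, 94.9, 110 and 78.8 CPM, against 29.5 and 11.5 (log2 change -2.48, SE 0.51, adjusted p = 0.00673). No DOCA value of either gene reached the lowest control, which the rule that chose the 12 falls required.

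XPO1, the main exporter of proteins from the nucleus (ENSSSCG00000028228, chromosome 3, 80255146 to 80300327), read 199, 262, 132, 185 and 166 CPM in controls, 23.4 in library 6 and 32.3 in library 7. Its change of -2.76 (SE 0.32, adjusted p = 0.000207) was -2.55 without library 6 and -3.08 without library 7, and its adjusted p with a weight per library was 0.0474. PLN, phospholamban, which restrains the calcium pump of the sarcoplasmic reticulum, stood at 70.4 to 153 CPM in controls, 13.3 in library 6 and 9.53 in library 7. ZBED5, a gene of transposon origin, went from 117 ± 36.8 CPM (SD, n = 5) to 15.7 and 12.5, and SS18, a subunit of the BAF chromatin remodelling complex, from 95.6 ± 35.2 to 10.1 and 15.6. CCNG1, a p53-induced cyclin, went from 81.2 ± 30.9 CPM to 11.9 and 17.6.

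The other large falls were mitochondrial proteins and 1 small RNA gene. HIBADH, an enzyme of valine breakdown, read 33.4, 47.6, 28.7, 38.9 and 21.3 CPM in controls, 5.58 in library 6 and 6.11 in library 7 (log2 change -2.54, SE 0.38, adjusted p = 0.0011). DECR1, needed to oxidise unsaturated fatty acids, had 56.0 to 81.3 CPM in controls and 13.1 and 9.04 in DOCA. ATP5MK, a small subunit of the ATP synthase, had 9.50 to 15.5 CPM in controls, 2.88 in library 6 and 1.22 in library 7. The gene named ssc-mir-10390 had 11.2 to 19.3 CPM in controls and 2.70 and 1.47 in DOCA. With a weight per library, XPO1 alone of the 12 largest falls kept its call, against TNFRSF12A, EEIG1, SPECC1, HCFC1R1, MAST2, MYO18B, MICAL1 and PKDCC of the 12 rises.

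**Figure D3:**
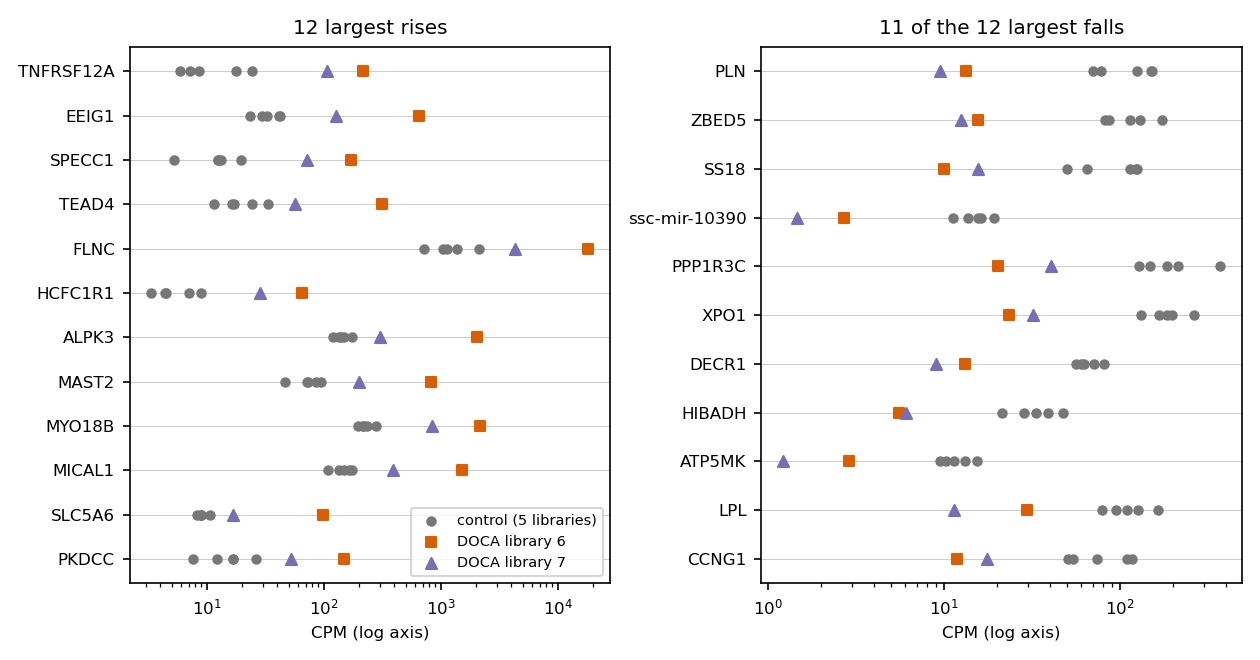
CPM on a logarithmic axis for the 12 largest rises (left) and 11 of the 12 largest falls (right), with the 5 controls as circles, DOCA library 6 as squares and DOCA library 7 as triangles. In every rise library 6 stands above library 7 (MYO18B 2171 and 839 CPM), while in the falls the DOCA libraries lie within 3-fold of each other (XPO1 23.4 and 32.3 CPM).

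The remaining genes were read in 26 lists by function, each against the shares of all tested genes above, 6.33% higher and 18.5% lower, and against 11.9% and 13.9% among genes above 0 in all 7 libraries. Structural lists had members that rose and members that fell. Of 28 tested genes of costameres, the adhesion sites between sarcomere and membrane, 5 rose and 4 fell (median log2 change -0.03). ITGA5, the fibronectin receptor subunit, read 221 to 355 CPM in controls, 1826 in library 6 and 402 in library 7, and its rise (1.97, SE 0.45, adjusted p = 0.0114) ended without library 6 (adjusted p = 0.274). ZYX, zyxin, which senses tension at adhesions, read 143, 72.8, 128, 101 and 126 CPM in controls and 287 and 256 in DOCA. Both values were well above the controls (log2 change 1.25, SE 0.30, adjusted p = 0.0161), though the call ended without library 6 (0.0667) and without control library 4 (0.0549). LIMS1, an adhesion adaptor, BCAR1, a docking protein, and PTK2, focal adhesion kinase, made up the 5 that rose. LIMS1 changed by 0.09 without library 6, and its call also ended without each control library (adjusted p = 0.057 to 0.0884) and without JK07 library 9 or 10 (0.0665 and 0.0523). BCAR1 lost its call without library 7 (0.249), each control library (0.0513 to 0.0946) and JK07 library 9 (0.0706), and PTK2 without library 6 (0.308), each control library (0.0571 to 0.167) and each JK07 library (0.0659 to 0.124).

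On the other side of the membrane complex, SGCB, a sarcoglycan that stabilises dystrophin, fell from 82.0, 66.5, 57.8, 72.3 and 69.2 CPM to 10.8 and 24.9 (log2 change -1.97, SE 0.38, adjusted p = 0.00467). SSPN, sarcospan of the same complex, fell from 70.5 to 107 CPM in controls to 16.6 and 43.7. UTRN, utrophin, fell by 0.65 on the log2 scale, and its call did not hold without library 6 (adjusted p = 0.0762) or without control library 1, 2, 3 or 4 (0.0598 to 0.0834). It ended also without library 7 (0.0863) and JK07 library 8 (0.0617). Over the whole list, 1 member was called higher without library 6 or control library 4, 2 without any other single control or JK07 library 9, and 3 without JK07 library 10, and 2 were called lower without control library 1, 2, 3 or 4.

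Among 44 tested genes of the actin cytoskeleton and of serum response factor, 5 rose and 4 fell (median -0.07). MYH9, the non-muscle myosin heavy chain, read 472, 239, 388, 361 and 515 CPM in controls, 1420 in library 6 and 1075 in library 7 (log2 change 1.66, SE 0.31, adjusted p = 0.00411). ACTN4, the non-muscle alpha-actinin, went from 187 to 284 CPM in controls to 701 and 446 (1.40, SE 0.25, adjusted p = 0.00298). PDLIM7, a Z-disc adaptor, rose by 1.71, a call that ended without library 6 (adjusted p = 0.167). CFL2, the muscle cofilin that severs actin filaments, fell from 59.0 to 122 CPM to 24.9 and 22.0 (-1.84, SE 0.39, adjusted p = 0.00816). MYL12B, a myosin regulatory light chain, fell by 1.19, and the call ended without library 6 (0.0969) and without control library 1 or 3 (0.0634 and 0.0616). ARPC2, of the actin-nucleating Arp2/3 complex, fell by 1.04 and lost the call without library 7 (0.178), without control library 1, 4 or 5 (0.0729 to 0.0863) and without JK07 library 8, 9 or 10 (0.0638 to 0.0693). The list had 2 falls without control library 1, 7 falls and 3 rises without library 6, and 11 falls without library 7.

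Of 31 tested genes of T-tubules, caveolae and membrane repair, 4 rose and 4 fell (median 0.39). Of the 27 above 0 in all 7 libraries, 4 rose and 3 fell. The median of these 27 was 0.42, against 0.06 over all such genes. PACSIN2, which bends membranes at caveolae, read 60.7, 47.3, 60.2, 63.1 and 64.3 CPM in controls, 211 in library 6 and 117 in library 7 (log2 change 1.47, SE 0.22, adjusted p = 0.000946; 0.0373 with a weight per library). S100A10, a partner of annexin A2, had 33.7 to 69.0 CPM in controls and 168 and 165 in DOCA, a close pair well above the controls (1.70, SE 0.34, adjusted p = 0.0059). CAVIN1, a coat protein of caveolae, rose from 163 ± 35.6 CPM to 334 ± 42.7 (SD, n = 5 and 2), and the call ended without library 6 (adjusted p = 0.0597). JPH1, a junctophilin that ties T-tubules to the sarcoplasmic reticulum, changed by 0.17 without library 6 (adjusted p = 0.638), and its call ended also without any single control library (0.0661 to 0.137) or JK07 library (0.0519 to 0.109). Annexin A7 (ANXA7), a membrane-binding protein, fell from 38.4 to 51.9 CPM to 12.2 and 11 (-1.93, SE 0.23, adjusted p = 0.000235). CAV2, caveolin 2, fell by 1.21, with an adjusted p of 0.0525 without library 7. Without library 7, 7 members of the list fell instead of 4, and without control library 1 there were 2.

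Among 47 tested microtubule genes, 7 rose and 5 fell (median -0.18), and without library 6 there were 3 and 8. Without library 7, 13 fell, and without control library 1, 3, 4 or 5 or JK07 library 9, 4 rose. MAST4, a microtubule-associated kinase, rose from 109 to 137 CPM in controls to 305 and 193 (log2 change 1.00, SE 0.19, adjusted p = 0.00376), and MAP7D1, a microtubule-binding protein, from 154 to 189 CPM to 359 and 289. KLC1, a kinesin light chain, and KIF1C, a kinesin motor, rose by 1.15 and 1.16 and lost the call without library 6 (adjusted p = 0.0859 and 0.119), KIF1C also without control library 5 (0.0504). TTLL7, which adds glutamates to tubulin, fell from 64.7 to 122 CPM to 21.6 and 31.5. DYNC1I2, an intermediate chain of the dynein motor, fell from 46.7 to 57.7 CPM to 10.8 and 25.4 (-1.52, SE 0.31, adjusted p = 0.00669).

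In the nucleus, lamina genes called among those above 0 in all 7 libraries were higher, and most chromosome-structure genes called were lower. Of 13 tested genes of the nuclear lamina and its linkers above 0 in all 7 libraries, 4 rose and 0 fell in edgeR. LMNA, which encodes lamins A and C (ENSSSCG00000006496, chromosome 4, 93899019 to 93926320), read 210, 93.9, 124, 116 and 217 CPM in controls, 479 in library 6 and 391 in library 7, 2.86-fold higher on average (log2 change 1.51, SE 0.33, adjusted p = 0.00877). SUN1, which links the lamina to the cytoskeleton across the nuclear envelope, read 93.5, 93.5, 127, 115 and 126 CPM in controls and 256 and 255 in DOCA (1.20, SE 0.19, adjusted p = 0.00165). LEMD2, a lamina-bound membrane protein, read 43.3 to 62.2 CPM in controls and 119 and 133 in DOCA (1.32, SE 0.20, adjusted p = 0.00103). The DOCA pair was nearly identical in SUN1 and LEMD2. It lay above every control, as in 1017 of the 1072 genes above 0 in all 7 libraries that rose. EMD, emerin, went from 16.7 to 22.3 CPM to 30.4 and 31.0 (0.73, SE 0.21, adjusted p = 0.0351), and this call ended without library 6 (0.0586), library 7 (0.0808), control library 2, 3, 4 or 5 (0.0616 to 0.104) or JK07 library 9 (0.0698). Over all 19 tested members of the list 3 fell, all listed at 0 in both DOCA libraries (LBR, TOR1AIP2 and TMPO), and 6 fell without library 7. No member kept its call with a weight per library.

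Cohesin, condensin and chromosome-structure genes had the largest share of falls of the 26 lists, 18 of 33 tested, with 2 that rose (median -1.69). Among the 20 above 0 in all 7 libraries, 12 fell, 60.0% against 13.9% of all such genes. NIPBL, which loads cohesin onto DNA (ENSSSCG00000016842, chromosome 16, 22152469 to 22363821), read 272, 351, 294, 283 and 255 CPM in controls, 125 in library 6 and 87.0 in library 7 (log2 change -1.45, SE 0.23, adjusted p = 0.00135; 0.0402 with a weight per library). PDS5B, a regulator of cohesin on chromatin, read 120, 96.3, 93.5, 97.4 and 77.8 CPM in controls and 20.7 and 24.9 under DOCA (-2.09, SE 0.22, adjusted p = 0.00012; 0.0499 with a weight per library). SMC3, a core arm of the cohesin ring, fell from 52.9 to 72.9 CPM to 13 and 24.2, and HMGN2, a nucleosome-binding protein, from 52.1 to 78.2 CPM to 19.4 and 27.4. All DOCA values of these 4 genes lay below the lowest control, as in 1250 of the 1251 genes above 0 in all 7 libraries that fell. The 2 genes that rose were fragile: HMGA1, an architectural protein, changed by 0.27 without library 6 (adjusted p = 0.761) and lost its call without control library 2, 3, 4 or 5 (0.0562 to 0.0698) or JK07 library 9 (0.0511). NCAPH2, of condensin II, lost it without library 7 (0.182), control library 1, 2, 3 or 5 (0.0574 to 0.116) or JK07 library 9 or 10 (0.0789 and 0.0545).

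Of 43 tested genes of transport between nucleus and cytoplasm, 18 fell, XPO1 among them, and 2 rose (median -0.95). Among the 27 above 0 in all 7 libraries, 9 fell, again with XPO1. XPOT, the exporter of tRNA, read 105, 105, 112, 112 and 118 CPM in controls, 36.7 in library 6 and 46.2 in library 7 (log2 change -1.41, SE 0.17, adjusted p = 0.000229; 0.0429 with a weight per library). The importers IPO8 and TNPO1 fell from 57.6 ± 7.70 to 24.5 ± 5.10 CPM and from 269 ± 20.3 to 131 ± 23.3 (SD, n = 5 and 2). NUP188, a scaffold of the nuclear pore, rose from 58.8 to 93.3 CPM to 359 and 120, with an adjusted p of 0.108 without library 6, and IPO9, an importer of histones, rose by 0.92 with 0.16 without it, 0.0759 without control library 4 and 0.0578 without JK07 library 9. Of 43 tested members, 11 were listed at 0 in both DOCA libraries.

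Of 39 tested genes of Mediator and RNA polymerase II, 16 fell and 2 rose (median -0.71). Among the 25 above 0 in all 7 libraries, 7 fell and 2 rose. MED13, of the kinase module that holds Mediator off the polymerase, read 268, 289, 233, 265 and 253 CPM in controls, 105 in library 6 and 110 in library 7 (log2 change -1.28, SE 0.16, adjusted p = 0.000293; 0.0294 with a weight per library). MED23, which relays signals to Mediator, fell from 74.7 to 127 CPM to 17.6 and 30.3, and MED1, the contact of nuclear receptors, from 63.3 to 80.2 CPM to 37.8 and 38.9 (-0.93, SE 0.17, adjusted p = 0.00329). MED15 and MED16 rose by 0.77 and 0.64, and both calls ended without library 6 (adjusted p = 0.136 and 0.0748) and without library 7 (0.0535 and 0.231). MED15 also lost it without control library 1, 4 or 5 (0.0584 to 0.0789) or JK07 library 9 (0.0686), and MED16 without any control library (0.0605 to 0.133) or JK07 library 9 or 10 (0.116 and 0.057).

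Histone lysine methyltransferases and demethylases split, with 8 of 47 tested genes that rose and 12 that fell (median -0.23). DOT1L, which methylates lysine 79 of histone H3 along transcribed genes, read 76.0, 59.7, 80.1, 79.5 and 92.8 CPM in controls, 581 in library 6 and 220 in library 7 (log2 change 2.37, SE 0.30, adjusted p = 0.000409; 0.0286 with a weight per library). ASH1L, another histone methyltransferase, read 389, 386, 385, 357 and 351 CPM in controls and 82.5 and 157 in DOCA (-1.64, SE 0.25, adjusted p = 0.00106; 0.0286 with a weight per library). EHMT1 rose from 66.9 to 101 CPM to 170 and 221. SETD2, which writes trimethylation of lysine 36 of histone H3, fell from 249 to 304 CPM to 156 and 100, and KMT2E from 257 to 376 CPM to 163 and 142. Without library 6 the list had 4 that rose instead of 8, as it did without control library 4 or 5 or JK07 library 9, and it had 5 without control library 1.

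Translation factors fell in 11 of 43 tested genes and rose in 3 (median -0.16), and the eIF3 complex, which prepares the small ribosomal subunit, was itself divided. EIF3B rose from 81.3, 73.8, 82.2, 82.8 and 105 CPM to 299 in library 6 and 154 in library 7 (log2 change 1.42, SE 0.23, adjusted p = 0.00199; 0.0474 with a weight per library). EIF3E fell from 53.5, 55.4, 49.2, 49.1 and 55.8 CPM to 17.1 and 15.9 (-1.67, SE 0.23, adjusted p = 0.000579), and EIF3H from 72.6 to 90.5 CPM to 29.9 and 38.9. EIF2A, a tRNA-binding factor, fell from 29.7 to 43.3 CPM to 10.8 and 11.7, and EIF4EBP2, which holds back cap-dependent initiation, from 136 to 203 CPM to 54.2 and 79.4. EEF1D and EIF4G1 rose by 1.19 and 0.80, with adjusted p = 0.227 and 0.326 without library 6. EEF1D also lost its call without control library 1, 2 or 4 (0.0527 to 0.0758), and EIF4G1 without control library 2, 3, 4 or 5 (0.0577 to 0.145) or any JK07 library (0.0683 to 0.112). Without library 7, 7 members rose instead of 3, and without control library 2 or 4 there was 1.

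Of 36 tested aminoacyl-tRNA synthetases, which charge tRNAs with amino acids, 5 rose and 8 fell (median -0.38). VARS1, for valine, read 26.6, 18.3, 24.4, 19.4 and 33.3 CPM in controls and 60.0 and 59.4 with DOCA (log2 change 1.29, SE 0.24, adjusted p = 0.00434). CARS1, for cysteine, rose from 50.8 to 74.7 CPM to 359 and 109 (1.97, SE 0.36, adjusted p = 0.0034; 0.86 without library 6). KARS1, for lysine, fell from 86.3 to 112 CPM to 48.1 and 54.3, with an adjusted p of 0.11 without library 6 and 0.0641 with upper quartile factors. Without control library 1, 3, 4 or 5, library 6 or JK07 library 9, 3 synthetases rose, and without control library 3, 5 fell.

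**Figure D4:**
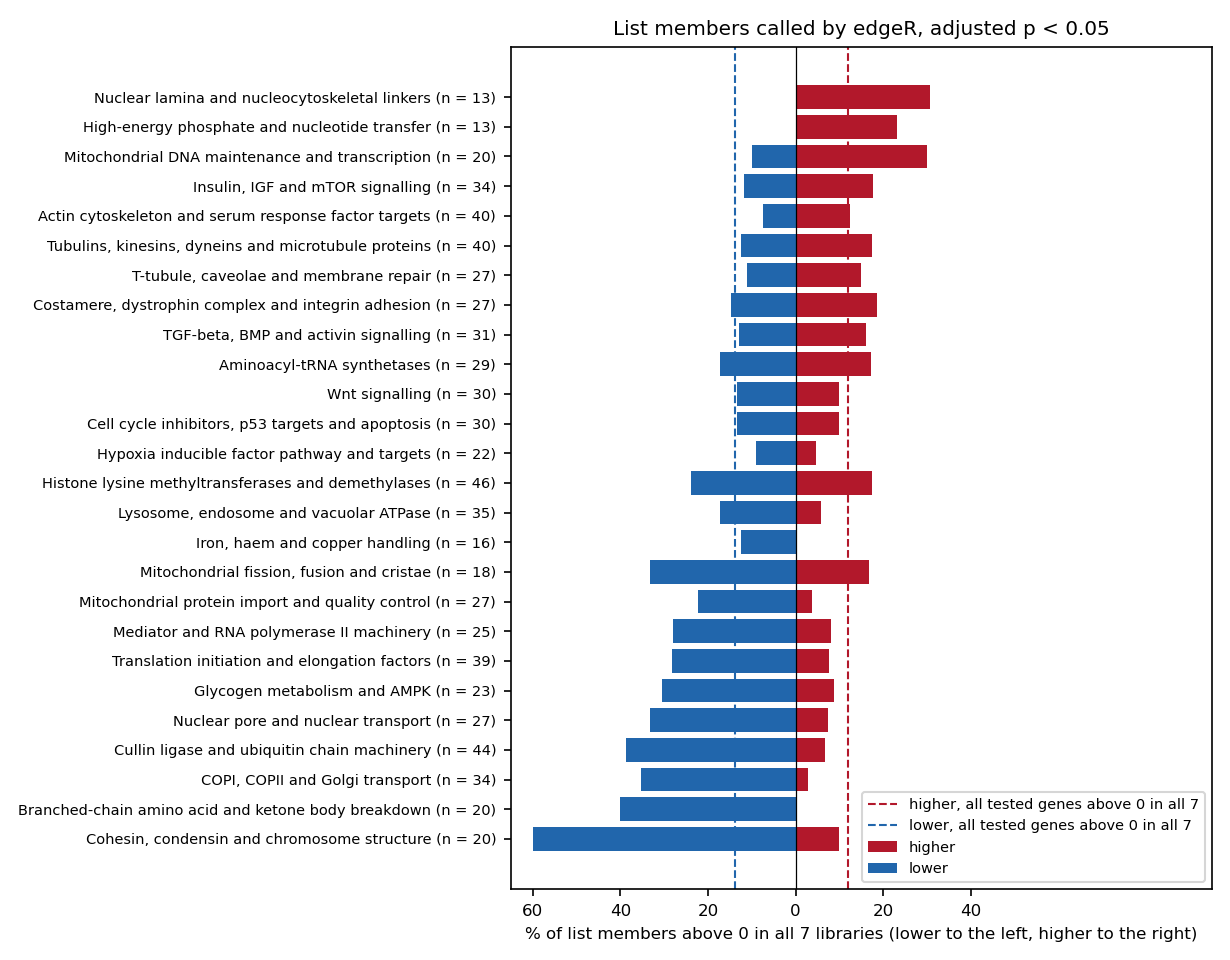
For each of 26 function lists, the percentage of its tested members above 0 in all 7 libraries that fell (left) or rose (right) in edgeR, with dashed lines at the shares of all such genes (13.9% and 11.9%) and the number of members in brackets. Cohesin and condensin genes stand at 60.0% lower, and lamina genes at 30.8% higher with none lower.

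Among fuel-handling lists, branched-chain amino acid breakdown had calls in 1 direction over all its tested members. In the glycogen list 25.0% of tested members fell and 7.14% rose, against 18.5% and 6.33% of all tested genes. Of 27 tested genes of branched-chain amino acid and ketone body breakdown, 12 fell and 0 rose in edgeR (median -1.25), and among the 20 above 0 in all 7 libraries 8 fell and 0 rose. OXCT1, the enzyme that lets the heart burn ketone bodies (ENSSSCG00000016863, chromosome 16, 26512401 to 26659808), read 165, 164, 137, 158 and 126 CPM in controls, 35.7 in library 6 and 74.0 in library 7 (log2 change -1.45, SE 0.28, adjusted p = 0.0049; 0.0499 with a weight per library). PCCA, a propionyl-CoA carboxylase subunit, fell from 44.0, 87.4, 57.6, 72.1 and 33.5 CPM to 15.3 and 15.2 (-1.95, SE 0.39, adjusted p = 0.00589). MCCC1, of leucine breakdown, fell from 55.1 to 127 CPM to 22.0 and 30.5, with an adjusted p of 0.0564 without library 6. Each DOCA value of these 3 genes lay below the lowest control, as in nearly all genes above 0 in all 7 libraries that fell.

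Of 28 tested genes of glycogen metabolism and AMP-activated kinase, 7 fell and 2 rose (median -0.65), PPP1R3C among the falls. PHKB, a regulatory subunit of phosphorylase kinase, which starts glycogen breakdown, read 114, 202, 138, 151 and 110 CPM in controls, 34.0 in library 6 and 26.9 in library 7 (log2 change -2.23, SE 0.30, adjusted p = 0.000594). PHKA1, another subunit of the same kinase, fell from 55.9 to 74.8 CPM to 18.7 and 27.6, and PRKAB2, the beta subunit of AMP-activated kinase, from 41.8 to 60.2 CPM to 23.6 and 19.1. PRKAG2, its gamma subunit and a gene of glycogen-storage cardiomyopathy, instead rose from 201, 69.9, 142, 144 and 133 CPM to 1551 and 456 (2.86, SE 0.55, adjusted p = 0.00489; 1.72 without library 6, adjusted p = 0.0672). PYGB, the brain form of glycogen phosphorylase, read 186 to 353 CPM in controls, 658 in library 6 and 352 in library 7, so that library 7 lay inside the control range and the call (adjusted p = 0.0478) ended without library 6 (0.399), control library 1, 3, 4 or 5 (0.0762 to 0.132) or any JK07 library (0.0583 to 0.108).

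Of 21 tested genes of high-energy phosphate transfer, 3 rose and 3 fell (median -0.41), and 5 were listed at 0 in both DOCA libraries. Among the 13 above 0 in all 7 libraries, 3 rose and 0 fell in edgeR (median 0.08), against 11.9% and 13.9% of all such genes. SLC6A8, the creatine transporter, was high in library 6 only, at 421 CPM, against 41.5 in library 7 and 14.2 to 62.8 in controls. Its rise of 2.73 (SE 0.71, adjusted p = 0.0219) became 0.25 without library 6 (adjusted p = 0.792), and the call ended also without control library 4 or 5 (0.0599 and 0.056). NME3, a nucleoside diphosphate kinase, rose from 10.1 to 14.0 CPM to 40.5 and 24.9 (1.38, SE 0.28, adjusted p = 0.00654), and AMPD2, an AMP deaminase, rose by 1.21 with a call that ended without library 6 (0.144), library 7 (0.101), control library 1, 3 or 4 (0.0605 to 0.119) or any JK07 library (0.0635 to 0.0876). Without library 6 or control library 4, 1 member of the list rose. Iron, haem and copper genes fell in 11 of 31 tested and rose in 0 in edgeR (median -0.84), but 11 members were listed at 0 in both DOCA libraries, and 2 of the 16 above 0 in all 7 fell. These were NCOA4, which releases iron from ferritin, from 48.7 to 73.2 CPM to 29.9 and 28.8, and TFRC, the transferrin receptor, from 131 to 340 CPM to 77.3 and 52.1 (adjusted p = 0.0858 without library 7).

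Nuclear genes that maintain and transcribe mitochondrial DNA were called in both directions. Of 37 tested, 6 rose and 11 fell (median -0.75), 11 members being listed at 0 in both DOCA libraries, and among the 20 above 0 in all 7 libraries 6 rose and 2 fell, 30.0% higher against 11.9%. POLG, the mitochondrial DNA polymerase, read 83.1, 69.9, 93.3, 72.8 and 100 CPM in controls, 166 in library 6 and 172 in library 7 (log2 change 1.01, SE 0.18, adjusted p = 0.00266). MTERF4, which acts on mitochondrial ribosome assembly, read 29.5, 28.8, 32.3, 30.0 and 32.1 CPM in controls and 59.2 and 59.9 in DOCA (0.96, SE 0.15, adjusted p = 0.00119). ELAC2, which trims mitochondrial tRNAs, rose from 20.3 to 25.8 CPM to 99.9 and 49.1 (1.72, SE 0.26, adjusted p = 0.00107; 0.04 with a weight per library). POLRMT, the mitochondrial RNA polymerase, rose from 34.5 to 53.7 CPM to 140 and 76.0, with an adjusted p of 0.0534 without library 6. LRPPRC, which stabilises mitochondrial mRNAs, fell from 71.2 to 102 CPM to 33.9 and 22.7 (-1.57, SE 0.25, adjusted p = 0.00145). These nuclear genes stood beside the low mitochondrial share of both DOCA libraries given above. Without library 6, 3 members rose and 17 fell.

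Of 36 tested genes of mitochondrial protein import and quality control, 7 fell and 1 rose (median -0.41), and 12 fell and 0 rose without library 6. CLPX, the unfoldase of a matrix protease, read 71.5, 88.8, 75.0, 63.4 and 64.7 CPM in controls and 22.1 and 23.2 with DOCA (log2 change -1.68, SE 0.21, adjusted p = 0.000366). GRPEL2, a cofactor of the matrix chaperone, fell from 95 to 179 CPM to 26.8 and 46.7. PMPCA, a subunit of the presequence peptidase, rose by 0.81, a call that ended without library 6 (0.136) and without control library 4 or 5 (0.0729 and 0.0673). Of 23 tested genes of mitochondrial fission, fusion and cristae, 8 fell and 3 rose (median -0.80). MFF, the receptor that recruits the fission machinery, fell from 41.3 to 72.5 CPM to 12.4 and 15.9 (-1.92, SE 0.27, adjusted p = 0.000732), and MFN1, a fusion GTPase, from 85.0 to 117 CPM to 50.8 and 46.4. RHOT2, which couples mitochondria to motors, rose from 13.1 to 29.9 CPM to 65.2 and 57.7 (1.43, SE 0.27, adjusted p = 0.00421). MIEF2, a recruiter of the fission GTPase, rose by 0.74, a call that ended without library 7 (0.104), control library 3, 4 or 5 (0.0587 to 0.0845) or JK07 library 9 (0.0593). SPIRE1, an actin nucleator, rose by 0.94, a call that ended without library 6 (0.538), any control library (0.0658 to 0.14) or any JK07 library (0.0606 to 0.113). Without control library 3, 4 or 5 or JK07 library 9, 1 member rose. In the import list 3 rose without library 7.

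Signalling lists showed pathway components that moved in both directions, as all tested genes did (6.33% rose and 18.5% fell). In the TGF-beta, BMP and activin list, 5 of 40 tested genes rose and 8 fell (median -0.20). Among its 31 genes above 0 in all 7 libraries, 16.1% rose and 12.9% fell, against 11.9% and 13.9% of all such genes. The ligand TGFB1, a driver of fibroblast activation, read 49.1, 33.5, 36.7, 32.4 and 31.9 CPM in controls, 96.2 in library 6 and 63.0 in library 7 (log2 change 1.12, SE 0.22, adjusted p = 0.00572; 0.0507 without library 6). INHBB, an activin subunit, rose from 5.37 to 15.1 CPM to 28.5 and 35.7, with an adjusted p of 0.05 without library 7. Signal-carrying SMADs were called in both directions. SMAD4, the SMAD shared by both branches, read 108, 103, 66.1, 77.0 and 83.3 CPM in controls and 27.9 and 30.3 in DOCA (-1.59, SE 0.24, adjusted p = 0.00111), and SMAD5, of the BMP branch, 86.1 to 105 CPM in controls and 46.8 and 35.2 in DOCA. SMAD9, also of the BMP branch, read 22.5 to 30.4 CPM in controls, 65.5 in library 6 and 34.7 in library 7 (0.89, SE 0.27, adjusted p = 0.0401), and its call ended without library 6 (0.379), any control library (0.0555 to 0.121) or JK07 library 9 (0.0949). SKIL, a repressor of SMAD targets, fell from 70.5 to 153 CPM to 22.1 and 23.0, while SMURF1, a ligase that degrades SMADs and receptors, rose from 45.7 to 61.3 CPM to 107 and 100 (0.88, SE 0.17, adjusted p = 0.00457). Fibroblast marker sums lay inside the control range in library 6 and above it in library 7, and their part in the TGFB1 value was not tested. The number that rose went from 5 to 3 without any single control library or JK07 library 9.

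In the Wnt list, 3 of 39 tested genes rose (7.69%) and 6 fell (15.4%), with a median of 0.08. These shares lay near those of all tested genes (6.33% and 18.5%). AXIN1 rose and BTRC fell, both of which act in the destruction of beta-catenin. AXIN1, the scaffold of the complex that destroys it, read 44.7, 40.8, 68.5, 53.5 and 64.0 CPM in controls, 239 in library 6 and 135 in library 7 (log2 change 1.78, SE 0.28, adjusted p = 0.00149; 0.05 with a weight per library). DVL1, which inactivates that complex on a Wnt signal, rose from 68.2 to 120 CPM to 269 and 235 (1.38, SE 0.24, adjusted p = 0.00273). BTRC, the ubiquitin ligase adaptor that marks beta-catenin, read 79.0, 94.0, 89.6, 87.8 and 87.4 CPM in controls and 19.4 and 23.9 in DOCA, a 4.03-fold lower mean (-2.01, SE 0.17, adjusted p = 3.43e-05; 0.0311 with a weight per library). CTNNB1, beta-catenin itself, fell from 241 to 319 CPM to 160 and 148 (-0.87, SE 0.18, adjusted p = 0.00715). LRP5, a Wnt co-receptor, rose by 1.09, a call that ended without library 6 (0.11), and without library 7 the list had 6 that rose instead of 3.

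In the insulin and mTOR list, 6 of 42 tested genes rose (14.3%) and 4 fell (9.52%), against 6.33% and 18.5% of all tested genes. The list median was 0.15, and 10 rose with upper quartile factors. TSC2, the brake of mTOR complex 1, read 114, 113, 133, 129 and 137 CPM in controls, 236 in library 6 and 232 in library 7 (log2 change 0.90, SE 0.20, adjusted p = 0.00959). AKT1S1, another inhibitor of that complex, rose from 15.1 to 19.8 CPM to 34.8 and 38.9 (1.09, SE 0.22, adjusted p = 0.00563). INSR, the insulin receptor, read 78.3 to 166 CPM in controls, 444 in library 6 and 227 in library 7, and IGFBP7, an IGF-binding protein, 100 to 217 CPM, 285 and 512. The call of INSR ended without library 6 (0.118) and that of IGFBP7 without library 7 (0.142). RRAGC, which brings mTOR complex 1 to the lysosome, fell from 22.1 to 31.0 CPM to 13.1 and 9.78, and RICTOR, the scaffold of mTOR complex 2, from 126 to 175 CPM to 84.1 and 36.2 (-1.33, SE 0.33, adjusted p = 0.0176). DEPTOR and SESN1 also fell, and both calls ended without library 6 (0.128 and 0.122), that of SESN1 also without library 7 (0.0617) and control library 2 (0.0521). Without library 7, 7 members fell instead of 4.

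The 3 members that rose in the list of cell cycle inhibitors, p53 targets and apoptosis were all GADD45 genes, which are stress-induced, and 10 of its 43 tested genes fell (median -0.56). Among the 30 above 0 in all 7 libraries, 3 rose and 4 fell, and 8 tested members were listed at 0 in both DOCA libraries. GADD45B read 53, 43.1, 34.6, 41.8 and 48.5 CPM in controls, 175 in library 6 and 90.4 in library 7 (log2 change 1.59, SE 0.29, adjusted p = 0.00378). GADD45G rose from 46.9 to 124 CPM to 601 and 224 (2.16, SE 0.43, adjusted p = 0.00555; 0.0767 without library 6), and GADD45A from 9.43 to 27.4 CPM to 70.1 and 71.1 (1.77, SE 0.52, adjusted p = 0.0372; 0.0949 without library 6 and 0.101 without library 7). The call of GADD45A ended also without any control library (0.0585 to 0.078) or JK07 library 9 (0.0621). BIRC6, a large inhibitor of apoptosis, read 557, 533, 502, 530 and 493 CPM in controls and 179 and 245 in DOCA (-1.30, SE 0.19, adjusted p = 0.00076; 0.0286 with a weight per library). TP53INP1, a p53 target, fell from 63.4 to 95.6 CPM to 24.0 and 32.0.

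In the hypoxia list, 5 of 27 tested genes fell (18.5%) and 1 rose (3.70%), with a median of -0.42. These shares lay near those of all tested genes (18.5% and 6.33%). Among the 22 above 0 in all 7 libraries, 2 fell and 1 rose, and 3 tested members were listed at 0 in both DOCA libraries. VEGFA, the main vessel growth factor, read 288, 366, 478, 229 and 322 CPM in controls, 3426 in library 6 and 456 in library 7. Library 7 thus lay inside the control range, and the rise of 2.53 (SE 0.57, adjusted p = 0.011) became 0.44 without library 6 (adjusted p = 0.441). BNIP3L, which marks mitochondria for removal, fell from 28.1 to 37.5 CPM to 7.74 and 11.2 (-1.77, SE 0.25, adjusted p = 0.000638). TXNIP, a brake on glucose uptake, fell from 619 to 1102 CPM to 373 and 399 (-1.12, SE 0.26, adjusted p = 0.0123; 0.0532 without library 6). Without library 7, 11 members fell and 3 rose, and without control library 4, 2 rose.

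Golgi transport, ubiquitin ligase and lysosome lists each had more members that fell than rose, as did all tested genes (18.5% and 6.33%). The lysosome list, with 16.3% that fell and 4.65% that rose, lay near those shares. Of 34 tested genes of COPI, COPII and Golgi transport above 0 in all 7 libraries, 12 fell and 1 rose, and over all 39 tested the counts were 13 and 1 (median -0.83). GOLGB1, the large tether of the Golgi, read 263, 314, 257, 273 and 276 CPM in controls, 83.2 in library 6 and 126 in library 7 (log2 change -1.41, SE 0.20, adjusted p = 0.000644; 0.0286 with a weight per library). SEC24B, a cargo receptor of COPII vesicles, fell from 76.6 to 94.1 CPM to 25.2 and 39.3 (-1.41, SE 0.22, adjusted p = 0.00128), and TRIP11 and SEC62, of the Golgi and of import into the endoplasmic reticulum, by 1.21 and 1.33. SEC16A, which marks the sites where COPII vesicles form, rose instead, from 89.0 to 174 CPM to 435 and 275 (1.42, SE 0.30, adjusted p = 0.00743; 0.0657 without library 6).

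Of 56 tested genes of cullin ligases and ubiquitin chains, 19 fell and 3 rose (median -0.84), and among the 44 above 0 in all 7 libraries 17 fell and 3 rose. ITCH, a ubiquitin ligase, read 91.8, 93.9, 84.2, 91.2 and 85.2 CPM in controls, 32.8 in library 6 and 32.0 in library 7 (log2 change -1.46, SE 0.17, adjusted p = 0.000218). USP9X, a deubiquitinase, read 323, 367, 276, 279 and 285 CPM in controls and 107 and 137 in DOCA (-1.32, SE 0.19, adjusted p = 0.000833; 0.0337 with a weight per library). CUL5, a cullin scaffold, and WWP1, a ligase, fell by 1.83 and 1.74 on the log2 scale. UBA1, the main ubiquitin-activating enzyme, rose from 84.0 to 129 CPM to 196 and 172 (0.81, SE 0.20, adjusted p = 0.0174; 0.0821 without library 6 and 0.0689 without control library 4). UBE2R2, a ubiquitin-conjugating enzyme, rose by 0.66 (0.126 without library 6, 0.0749 and 0.0878 without control libraries 4 and 5 and 0.0651 without JK07 library 9). KLHL40, which stabilises thin filament proteins in muscle, was high in library 6 alone, at 153 CPM against 25.4 in library 7 and 20.8 to 29.3 in controls, and changed by -0.08 without it (adjusted p = 0.878). Its call ended also without any control library (0.0633 to 0.0895) or JK07 library 9 or 10 (0.0606 and 0.0523). Over the whole list, edgeR called 0 members higher without control library 4, 1 without control library 5, library 6 or JK07 library 9, and 5 without library 7. Of 43 tested lysosome and endosome genes, 7 fell and 2 rose (median -0.33), and 13 fell without library 6. VPS29, of the retromer coat, fell from 25.9 to 39.0 CPM to 7.56 and 8.55, and ATP6V1H, a subunit of the lysosomal proton pump, from 21.1 to 26.3 CPM to 9.36 and 8.31. PSAP, the precursor of the saposins, and TFEB, a regulator of lysosome genes, rose by 1.06 and 0.85, and both calls ended without library 6 (0.104 and 0.137) and without control library 4 (0.053 and 0.0674). TFEB also lost it without control library 1, 2 or 5 (0.0546 to 0.0694) or JK07 library 9 (0.0707).

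Gene span and chromosome differed between genes that rose and fell, a description over genes that are not independent. The 301 rises beyond the control range that held without library 6 and without library 7 had a median span of 21.6 kb. The 686 falls chosen in the same way had 59.5 kb. Span was taken from the first to the last base of the gene. Among tested genes above 0 in all 7 libraries, 18.3% of those spanning 10 to 20 kb rose and 7.87% fell, whereas of those spanning 50 to 100 kb 10.9% rose and 25.3% fell. Beyond 400 kb, 6.04% rose and 19.5% fell. By chromosome, rises ranged from 6.37% of genes on chromosome 1, where 18.6% fell, to 16.7% on chromosome 12, where 9.02% fell. The median span was 36.8 kb on chromosome 1 and 16.7 kb on chromosome 12, so span and chromosome were not separated. By mean CPM over the 7 libraries, 15.7% of genes above 0 in all 7 rose and 19.1% fell at 100 CPM or more, and no such gene passed the test under 5 CPM. Genes with zeros did pass at low levels, and 12.7% of all tested genes at 2 to 5 CPM fell.

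**Figure D5:**
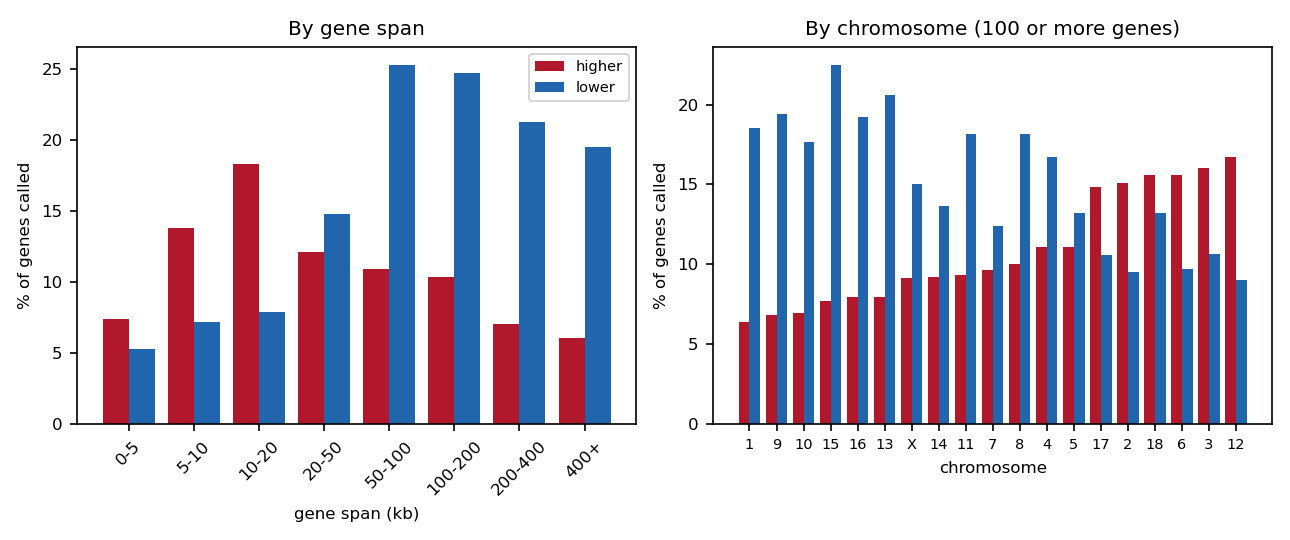
Percentage of tested genes above 0 in all 7 libraries that rose (red) or fell (blue), by gene span in kb (left) and by chromosome (right, chromosomes with 100 or more such genes, ordered by the share that rose). Falls outnumber rises from 20 kb upward (25.3% and 10.9% at 50 to 100 kb), and chromosomes 12, 3 and 6 have the largest shares of rises with 16.7%, 16.1% and 15.6%.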

How the data were processed

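Nuclear RNA libraries were made with TRIzol and a TruSeq kit, per the labels' protocols. SAMtools, StringTie and edgeR were used on Sscrofa11.1, per the submitters' processing notes. Aligner, versions, annotation release and strand setting: not given in the sources used here. Overlapping, antisense and near-identical genes are therefore uncertain. The authors deposited whole-number estimated counts without a gene column, and, per the file headers, tables of coverage signal and TPM for each library. Sorted gene identifiers shared the zero pattern of counts and coverage in 99.998% of values, against 62.6% when moved by 1 line. These coverage-derived counts were used unrounded, as deposited.

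Library size was the sum outside the mitochondrial genome and the 2 ribosomal RNA scaffolds, which took 82.1% to 90.8% of all counts in the 7 libraries. All 10 libraries entered 1 model of edgeR 4.0.16 in R 4.3.3 (TMM, filterByExpr, quasi-likelihood F test, Benjamini-Hochberg adjustment over 17149 genes). Its code was checked on simulated counts that gave each gene the same spread in every group. The simulation did not model the many zeros of the DOCA libraries or their own spread, so it does not bear on the calls here. SE is the absolute log2 change divided by the square root of F, and errors of CPM are SD. The design assumed direct counts. Alternatives were DESeq2 1.42.0, voom weights and log2 of rescaled TPM plus 1 or 0.1 in limma 3.58.1, other scalings and filters, thinning, and leaving out each library. The files paired 17640 identifiers with a symbol, and a reference table gave 119 more. The sequences of the genes were not used here.

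Genes and lists were chosen with earlier results of these data known. The rule named the 12 largest changes each way among genes with a symbol, above 0 in all 7 libraries, of mean CPM at least 5, with both DOCA libraries beyond the control range and the call kept without library 6 and without library 7. It also named up to 4 members per list and direction with the lowest adjusted p. PTK2, KRT19, KRT8, MYL2, LBR, TOR1AIP2, TMPO and the marker genes listed at 0 were named after their values were seen. Some genes that the rule names are not reported here.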

Additional observations from a re-analysis of the deposited data

Results flagged for a closer look

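Among the 180 named genes, 5 had 1 control library far from the other 4 by Dixon's criterion (a gap over 0.71 of the range); chance alone marks about 1 in 20 such groups, and these 5 are fewer than that. PACSIN2 read 47.3 CPM in control library 2, below a control median of 60.7. ACTN4 read 284 CPM in control library 3, above a median of 209. TGFB1 read 49.1 CPM in control library 1, above a median of 33.5. KLHL40 read 20.8 CPM in control library 4, below a median of 27.9. SLC5A6 read 10.6 CPM in control library 3, above a median of 8.92. In PACSIN2, ACTN4, TGFB1 and SLC5A6 both DOCA libraries lay above that control too, and in KLHL40 library 7 lay inside the control range.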

How the results depend on the processing

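No paired analysis was possible because the replicate numbers 1 to 10 run on across the groups and no number is shared. The count of genes higher was 1085, against 1643 with DESeq2, 96 with voom and a weight per library and 48 per group, 387 with log2(TPM + 1), 349 with log2(TPM + 0.1) and 562 to 1298 without 1 library. The count lower was 3171, against 1347 with a count of at least 10 in all 7 libraries, which tests fewer genes, 86 and 47 with voom and 2539 to 4005 without 1 library. Among genes above 0 in all 7 libraries, 1072 were higher, against 1620 with DESeq2, 86 and 42 with voom, 347 and 331 with TPM and 548 to 1212 without 1 library, and 1251 lower, against 84 and 46 with voom and 996 to 1503 without 1 library. Function list members numbered 86 higher, against 5 and 3 with voom, 23 and 20 with TPM and 48 to 94 without 1 library, and 234 lower, against 12 and 7 with voom and 204 to 306 without 1 library. The cause was not tested. The share of calls that were higher was 25.5%, against 35.4% with upper quartile factors, 50.7% with the count minimum of 10 and 7.98% and 7.62% with TPM. Of the 180 named genes, 180 kept direction and call with DESeq2, 175 with RLE factors, 173 with thinning, 169 with upper quartile factors, 129 with log2(TPM + 1), 127 without library 6 and 25 with a weight per library. KLHL40 alone changed sign, to a log2 change of -0.081 without library 6 against 2.45 without library 7. With 2 DOCA libraries, of which 1 held 3.30 M counts, the spread within DOCA is barely measured.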

Other observations

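A pair of further gene groups was looked at after values had been seen, so the counts are descriptions. Of 97 tested nucleolar factors of ribosome biogenesis, 32 were higher and 7 lower in edgeR (median log2 change 0.54), against 6.33% higher and 18.5% lower over all tested genes (median -0.58). Among the 84 above 0 in all 7 libraries, 32 were higher and 5 lower (median 0.64). Of all such genes, 11.9% were higher and 13.9% lower (median 0.06). NOC2L, a ribosome assembly factor, read 42.4, 27.3, 37.8, 28.5 and 34.8 CPM in controls, 214 in library 6 and 86.8 in library 7 (2.14, SE 0.33, adjusted p = 0.00123). BOP1, of the large-subunit processing complex, read 23.4 to 31.9 CPM in controls, 121 in library 6 and 74.0 in library 7 (1.78, SE 0.22, adjusted p = 0.000325). NOL8, another nucleolar protein, read 53 to 74.3 CPM in controls and 29.4 and 27.1 in DOCA (-1.17, SE 0.23, adjusted p = 0.00496). The balance rested on library 6: without it 13 members were higher and 19 lower, and without library 7 40 and 7.

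Of 77 tested centrosome and cilium proteins, 27 were lower and 4 higher (median -1.43), against the same shares over all genes, and 19 of the 77 were listed at 0 in both DOCA libraries. Among the 42 above 0 in all 7 libraries 15 were lower and 4 higher, against 13.9% and 11.9% of all such genes. ALMS1, a basal body protein, read 155, 246, 200, 174 and 171 CPM in controls and 37.1 and 55.0 in DOCA (-2.04, SE 0.25, adjusted p = 0.000331). CEP350, a centriole protein, read 210 to 245 CPM in controls and 93.6 and 78.2 in DOCA (-1.40, SE 0.16, adjusted p = 0.00021). CEP170B read 18.3 to 31.4 CPM in controls, 70.6 in library 6 and 110 in library 7 (1.94, SE 0.27, adjusted p = 0.000745). Without library 6 there were 29 lower and without library 7 45.

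SGK1, a kinase induced through the mineralocorticoid receptor, chosen after its values were seen, read 74.0 to 125 CPM in controls, 46.5 in library 6 and 184 in library 7. The DOCA libraries lay on opposite sides of the controls (0.25, SE 0.49, adjusted p = 0.745 in edgeR).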
